A study of Mus musculus with 6 samples.

Results

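Toll-like receptors, NLRs and caspases are the sensors and proteases of innate immunity and programmed cell death. They were followed in whole thymus by gene symbol: Tlr, Nlrp, Nlrc, Naip, Casp and Card followed by a digit, plus Pycard, Myd88, Nod1, Nod2 and Aim2, with Nlrc5 left out. Of 60 such symbols among the 24054 genes of the count table, 59 had reads and are the members, and Naip7 had none. The symbol rule also takes in Casp8ap2, which encodes a partner of caspase 8 and not a caspase, and 2 pseudogenes, Nlrp1c-ps and Nlrp5-ps. Messenger RNA was sequenced from thymus in 3 libraries of K5-rtTA:TetO-RANKL mice, called RANKL here, and in 3 libraries of control mice. RANKL, a cytokine of the TNF family, is made on doxycycline wherever the K5 (keratin 5) promoter is active, which includes the medullary epithelium of the thymus. The controls carried 1 transgene, which the labels do not name, and both groups received doxycycline in food and water. Dosing is given as 1 week from an age of 8 weeks in one label and 2 weeks from 9 weeks in another. Totals were 18254870 to 25357060 counted reads in the RANKL libraries and 18654395 to 21453466 in the control libraries. A floor of 3 reads was 0.122 to 0.161 CPM (the read count scaled to library size) in the RANKL libraries and 0.143 to 0.158 CPM in the control libraries, which covers counting error only. Tnfsf11, the gene of RANKL, had 3334, 4812 and 2390 CPM in RANKL libraries, against 6.01, 6.34 and 8.89 CPM in control libraries.

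Toll-like receptors recognise microbial molecules at the cell surface or in endosomes, and most of them signal through the adaptor MyD88 to NF-kB. NLRs and AIM2 are sensors in the cytosol; some of them assemble, with the adaptor ASC, into inflammasomes that activate caspase 1, which cuts the precursors of interleukin 1 beta and interleukin 18 and the pore protein gasdermin D. Other caspases carry out apoptosis, the usual fate of thymocytes that fail selection. All levels below are CPM scaled by TMM, a normalisation for library composition, and each fold change is RANKL over control with its standard error and an edgeR p-value adjusted over the 16096 genes tested. In whole thymus fewer cells of a type and less RNA per cell cannot be told apart.

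Of the 59 members, 45 passed the low-count filter and 14 did not, all of these Nlrp genes. At an adjusted p under 0.05, 30 of the 45 were higher in RANKL, 8 were lower and 7 were not called. Across all 16096 genes tested 63.4% were called, 33.8% higher and 29.6% lower, so that calls in either direction were common. The median log2 fold change was 1.41 over the 45 members and -0.02 over all genes tested. RANKL and control libraries did not overlap in 37 of the 45 members, against 70.1% of all genes. Nlrp12, Naip1 and Nlrp5 passed the filter through RANKL libraries alone and so had to differ, Card14, Casp14, Naip6 and Nlrp6 passed partly through them, and these counts are a description. The increases included 10 of 12 Toll-like receptors, Myd88, Nlrp genes, Nod and Naip genes, Nlrc4, Card10, Card14, inflammatory caspases and Casp14, and the decreases included ASC, Nlrc3, 2 receptors of protozoan profilin and caspase 2.

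**Figure D1:**
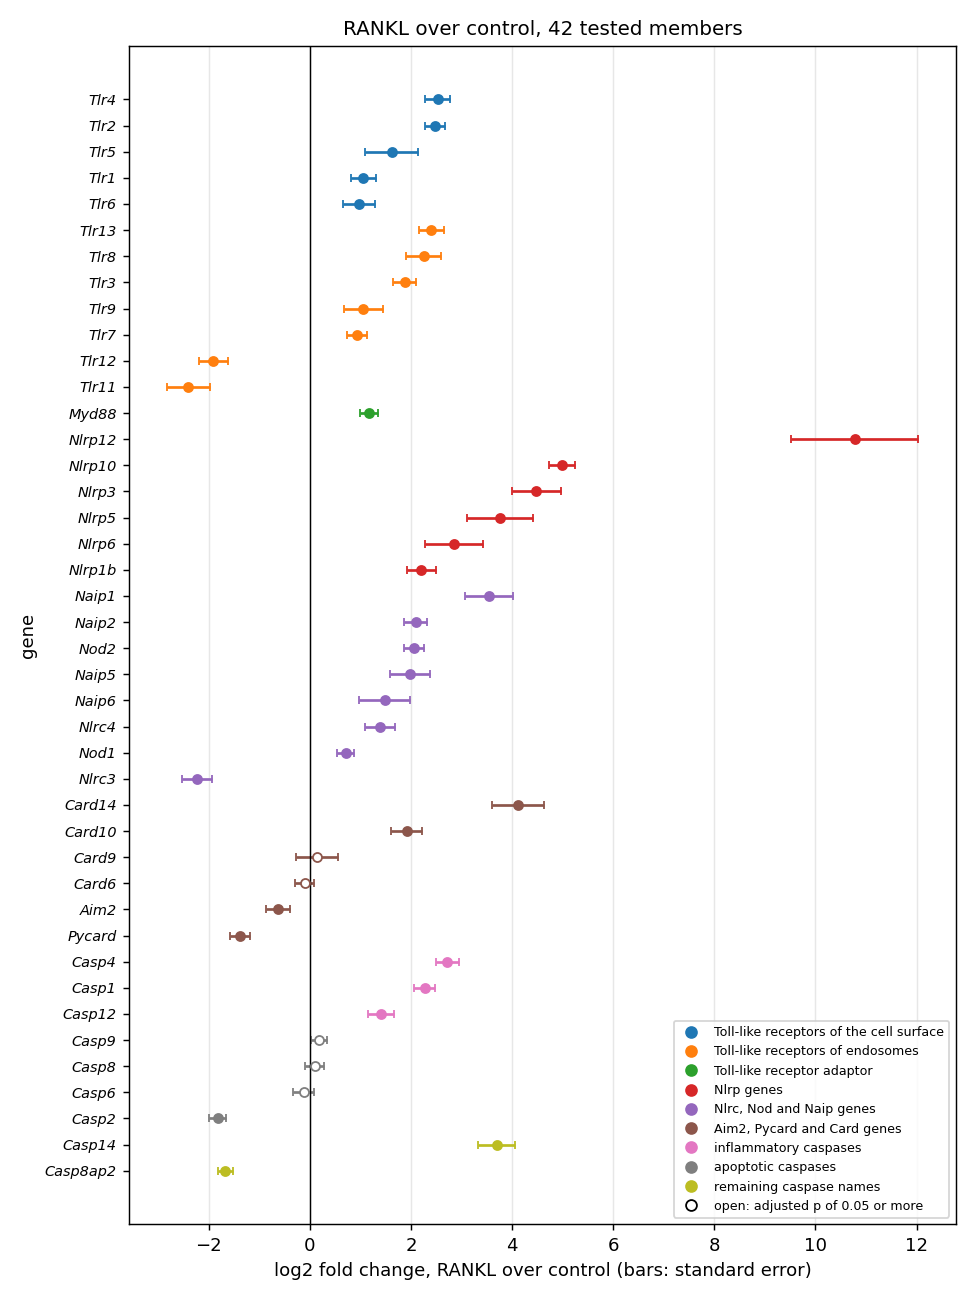
Log2 fold change of RANKL over control (x axis) for 42 of the tested members (y axis), coloured by role. Points are edgeR estimates, bars are standard errors, and open points were not called; the 3 open caspases sit between -0.12 and 0.18. Nlrp12 had no control reads, so its position depends on the prior count of the fit.

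Of the receptors that act mainly at the cell surface, Tlr1, Tlr2, Tlr4, Tlr5 and Tlr6 were all higher in RANKL. Tlr2, which senses bacterial lipoproteins together with Tlr1 or Tlr6 (chromosome 3, 83836272 to 83841824 in GRCm38), had 64.2, 96.9 and 68.6 CPM in RANKL libraries, against 14.8, 13.2 and 13.0 CPM in control libraries. Tlr4, the lipopolysaccharide receptor (chromosome 4, 66827551 to 66846581), had 43.9, 71.9 and 39.2 CPM in RANKL libraries, against 9.49, 8.50 and 8.84 CPM in control libraries. Every RANKL library of both genes stood above every control library, and RANKL replicate 2 was the highest. Log2 fold changes were 2.48 ± 0.20 for Tlr2 (adjusted p = 1.23e-05) and 2.53 ± 0.25 for Tlr4 (adjusted p = 3.24e-05). The genes of its co-receptors lie side by side on chromosome 5. Tlr1 had 15.9, 22.0 and 23.0 CPM in RANKL libraries, against 8.12, 12.2 and 8.98 CPM in control libraries, a log2 fold change of 1.06 ± 0.24 (adjusted p = 0.00398). Tlr6 had 10.8, 25.7 and 17.8 CPM in RANKL libraries, against 8.22, 8.30 and 10.99 CPM in control libraries (0.98 ± 0.32, adjusted p = 0.0212). RANKL replicate 1 of Tlr6 lay below control replicate 3, and the call was lost without RANKL replicate 2 (adjusted p = 0.0958), control replicate 1 (0.0629) or control replicate 2 (0.0779), and when title-number ranges were fitted as blocks (0.0621). Tlr5, the flagellin receptor, was lowest of the group, at 4.36, 6.75 and 2.78 CPM in RANKL libraries, against 1.95, 2.06 and 0.526 CPM in control libraries (1.62 ± 0.53, adjusted p = 0.0229). That call was lost without RANKL replicate 2 (0.0718) or control replicate 3 (0.0543).

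The promoter of Tlr2, the surface receptor with the smallest p, is shown as RefSeq gives it for GRCm38.p6, from 250 bases before to 50 after the start, at chr3:83841559-83841858 on the minus strand. Capitals mark matches on either strand to GGG, any 5 bases and CC, a loose form of the sequence that NF-kB binds, with overlapping matches counted.
Tlr2: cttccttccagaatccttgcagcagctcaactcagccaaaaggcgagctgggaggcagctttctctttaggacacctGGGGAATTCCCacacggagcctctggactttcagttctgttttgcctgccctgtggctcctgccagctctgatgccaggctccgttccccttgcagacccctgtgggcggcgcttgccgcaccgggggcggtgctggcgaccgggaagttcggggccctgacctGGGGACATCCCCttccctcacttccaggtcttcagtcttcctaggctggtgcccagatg
The 5 matches overlap and merge into the capital stretches. Of 32851 such windows, 50.8% held at least 1 match, and by gene it was 18 of the 47 members with a window (38.3%) against 53.5% of all 27025 genes. GAGGAAGT, the core bound by the myeloid and B cell factor PU.1, was in the windows of 8 of the 47 members (17.0%), namely Tlr1, Tlr9, Tlr11, Aim2, Pycard, Nlrp1a, Nlrp1b and Nlrp4c, against 3.69% of all genes. Of the 26 higher members with a window 3 held it, while Tlr11, Aim2 and Pycard were lower, and Nlrp1a and Nlrp4c did not pass the filter. Letters in a window are a description and do not show a binding site.

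**Figure D2:**
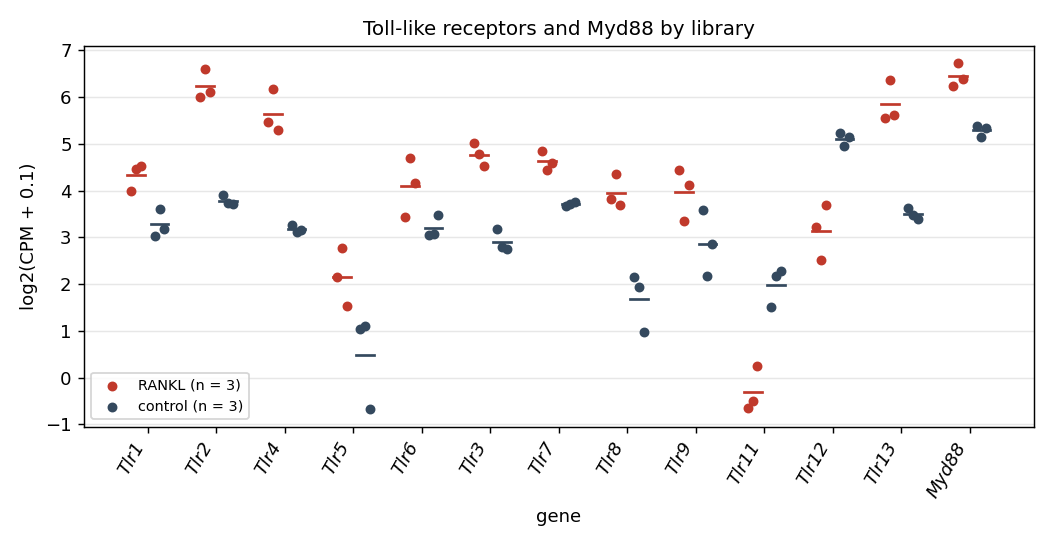
Log2(CPM + 0.1) of 12 Toll-like receptor genes and Myd88 (x axis), with 1 point per library and a bar at the group mean, RANKL left of control. Tlr11 and Tlr12 are the receptors whose RANKL libraries all lie below the control libraries; for Tlr6 and Tlr9 the groups overlap.

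Among the receptors of endosomes 5 were higher and 2 were lower. Tlr13, the mouse sensor of bacterial ribosomal RNA (chromosome X, 106143275 to 106160493), had 47.0, 83.0 and 49.2 CPM in RANKL libraries, against 12.3, 11.1 and 10.4 CPM in control libraries (log2 fold change 2.41 ± 0.25, adjusted p = 3.79e-05). Tlr3, the receptor for double-stranded RNA, had 32.4, 27.2 and 22.9 CPM in RANKL libraries, against 8.91, 6.85 and 6.64 CPM in control libraries (1.88 ± 0.22, adjusted p = 8.8e-05). In both genes the groups were apart, but the highest RANKL library was replicate 2 for Tlr13 and replicate 1 for Tlr3. Tlr7 and Tlr8, neighbours on chromosome X and related receptors for single-stranded RNA, both rose. Tlr8 had 14.05, 20.5 and 12.8 CPM in RANKL libraries, against 4.38, 3.71 and 1.86 CPM in control libraries (2.25 ± 0.35, adjusted p = 0.000431). Tlr7 had 28.9, 21.7 and 24.0 CPM in RANKL libraries, against 12.7, 13.0 and 13.3 CPM in control libraries (0.94 ± 0.19, adjusted p = 0.002). The difference between these 2 changes was not tested. Tlr9, the receptor for unmethylated CpG DNA, had 21.6, 10.1 and 17.2 CPM in RANKL libraries, against 11.9, 4.38 and 7.12 CPM in control libraries (1.06 ± 0.39, adjusted p = 0.0372). Its groups overlapped, and its call was lost without RANKL replicate 1 (0.0954), RANKL replicate 3 (0.0566), control replicate 2 (0.126) or control replicate 3 (0.114).

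Tlr11 and Tlr12, which recognise profilin of the parasite Toxoplasma, were the receptors that fell. Tlr12 (chromosome 4, 128615446 to 128618619) had 9.26, 5.61 and 12.8 CPM in RANKL libraries, against 37.5, 30.8 and 35.2 CPM in control libraries (log2 fold change -1.90 ± 0.29, adjusted p = 0.00033). Tlr11 was low throughout, at 0.538, 0.610 and 1.08 CPM in RANKL libraries, against 2.74, 4.38 and 4.73 CPM in control libraries (-2.40 ± 0.43, adjusted p = 0.000888). For both, RANKL replicate 3 was the highest RANKL library and still below every control library. Per kilobase of exon the order of the receptors differed between the groups. In RANKL libraries Tlr2 came first, at 25.4 ± 5.88 CPM per kilobase (mean ± SD, n = 3), followed by Tlr13 at 13.9 ± 4.68 and Tlr4 at 9.30 ± 3.18; Tlr13 and Tlr4 overlapped within 1 SD, while Tlr12 stood at 2.91 ± 1.13. In control libraries Tlr12 came first, at 10.9 ± 1.07 CPM per kilobase, followed by Tlr2 at 4.55 ± 0.32 and Tlr7 at 3.18 ± 0.08, and Tlr7, Tlr1, Tlr13, Tlr6 and Tlr9 formed a row whose neighbours overlap within 1 SD.

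Downstream of the receptors, Myd88 had 75.1, 105.7 and 83.1 CPM in RANKL libraries, against 41.5, 35.4 and 40.2 CPM in control libraries (log2 fold change 1.17 ± 0.17, adjusted p = 0.000323). Proteins that help the receptors to bind ligands or to reach their place rose in 6 of 9 genes, with none lower and a median of 0.91. The share higher was 66.7%, against 33.8% of all genes tested. Cd14, which hands lipopolysaccharide to the Tlr4 complex, had 507.8 ± 304.4 CPM in RANKL and 6.21 ± 0.60 CPM in control libraries (SD, n = 3 each), or 6.35 ± 0.45 on the log2 scale. The lipopolysaccharide-binding protein Lbp rose by 4.50 ± 0.29, Unc93b1, which carries receptors to endosomes, by 1.29 ± 0.14 and the chaperone Hsp90b1 by 0.82 ± 0.17. Of 19 other adaptors, kinases and brakes 5 were higher and 5 lower, with a median of -0.20. That is 26.3% in each direction, below the 33.8% higher and 29.6% lower of all genes tested. The kinase Irak2 rose by 2.24 ± 0.17, its relative Irak3, a brake on signalling, by 1.72 ± 0.22 and the bridging adaptor Tirap by 2.08 ± 0.33, while Tab1, a partner of the kinase TAK1, fell (-1.02 ± 0.16). With RANKL replicate 1, 2 or 3 left out, 2 genes of this list were called lower.

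The 20 Nlrp members split by level: 6 passed the filter and were all higher, and 14 had between 1 and 35 reads over the 6 libraries. Nlrp12 and Nlrp5 passed the filter through RANKL libraries alone and Nlrp6 partly through them, so the count of 6 is a description. Of all genes tested 33.8% were higher. Nlrp10, an Nlrp protein without the leucine-rich repeats of its relatives (chromosome 7, 108921853 to 108930158), had 32.7, 38.7 and 25.4 CPM in RANKL libraries, against 1.05, 0.979 and 1.00 CPM in control libraries. Its log2 fold change of 4.99 ± 0.26 had the smallest p of the members (adjusted p = 3.64e-06), and the control libraries lay close together. Nlrp3, which forms the inflammasome that responds to potassium loss and crystals (chromosome 11, 59541569 to 59566955), had 16.4, 62.0 and 28.2 CPM in RANKL libraries, against 1.69, 1.598 and 1.48 CPM in control libraries (4.48 ± 0.48, adjusted p = 4.89e-05). RANKL replicate 2 was far above the other two, and without it the value was 3.82, still called. Nlrp12, a myeloid gene (chromosome 7, 3218643 to 3249771), had 59, 447 and 221 reads in RANKL libraries and 0 in each control library. Against a floor of 3 reads over the control group it was at least 223-fold higher in RANKL, at least 139-fold without RANKL replicate 2 and at least 144-fold without control replicate 3. These bounds leave out the counting error of the RANKL reads.

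The other tested Nlrp genes were lower in level. Nlrp1b, the sensor of anthrax lethal toxin in some mouse strains, had 7.75, 9.88 and 8.44 CPM in RANKL libraries, against 1.69, 2.27 and 1.67 CPM in control libraries (log2 fold change 2.21 ± 0.29, adjusted p = 0.000154). Its neighbour Nlrp1a had only 27 reads in RANKL and 8 in control libraries, and reads of these copies may be shared. Nlrp6, known from intestinal epithelium, had 3.12, 1.63 and 3.16 CPM in RANKL libraries, against 0.685, 0.258 and 0.143 CPM in control libraries (2.85 ± 0.58, adjusted p = 0.00195), and 3.66 without control replicate 1. Nlrp5, an oocyte gene needed by the early embryo, had 2.53, 1.18 and 3.39 CPM in RANKL libraries, against 0.316, 0.0515 and 0.143 CPM in control libraries (3.75 ± 0.65, adjusted p = 0.000801), and 4.47 without control replicate 1. For both genes all 3 RANKL libraries stood above the control libraries. Nlrp5 passed the filter through RANKL libraries alone and so had to differ, and Nlrp6 passed partly through them.

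The 14 members under the filter belong mostly to the Nlrp4 and Nlrp9 copies and were near the floor. In a fit without the filter, 4 of the 14 were called, all higher: Nlrp14, Nlrp9b, Nlrp4e and Nlrp4a. Over all genes that fit called 5955 of 20797 higher and 5332 lower, so the count of 4 is a description. Nlrp14 had 8, 10 and 10 reads in RANKL libraries, against 1, 0 and 0 reads in control libraries, a ratio of scaled counts of 25.8 with a 95% exact counting interval of 4.26 to 1054. That ratio was 16.7 without control replicate 3. Without control replicate 1, which holds the single control read, it was 5.85 against a floor of 3 control reads. Nlrp9b had 9, 8 and 7 reads in RANKL libraries, against 1, 0 and 1 in control libraries, a ratio of 11.1 (2.74 to 96.5). Nlrp4e had 5, 4 and 4 reads and Nlrp4a 3, 2 and 7 reads in RANKL libraries, against 0 in each control library. Against a floor of 3 reads over the control group the ratios were 3.99 for Nlrp4e and 3.68 for Nlrp4a. Ratios against this floor leave out the counting error of the RANKL reads, so they are not full lower limits of the fold. The ratio for Nlrp4e was 2.58 without control replicate 3, and that for Nlrp4a was 2.29 without RANKL replicate 3 and 2.38 without control replicate 3. The other 10 had at most 27 reads in a group: Nlrp1a, Nlrp1c-ps, Nlrp2, Nlrp4b, Nlrp4c, Nlrp4f, Nlrp4g, Nlrp5-ps, Nlrp9a and Nlrp9c. Nlrp2 and Nlrp4c had more reads in control libraries, with 2 and 0 reads in RANKL against 5 and 3 in control libraries, which is too few to compare.

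The Nlrp3 window at its annotated start, chr11:59541319-59541618 on the plus strand of GRCm38.p6, the upstream of its 2 starts, is shown because Nlrp3 had the smallest p among the Nlrp genes with a RefSeq window. Capitals mark the same pattern, here 1 match.
Nlrp3: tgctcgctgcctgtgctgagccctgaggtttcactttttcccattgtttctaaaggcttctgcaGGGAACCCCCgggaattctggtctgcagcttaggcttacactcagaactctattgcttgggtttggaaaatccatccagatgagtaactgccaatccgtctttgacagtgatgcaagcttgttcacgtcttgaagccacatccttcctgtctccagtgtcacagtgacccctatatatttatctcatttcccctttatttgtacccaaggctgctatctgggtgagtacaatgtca

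**Figure D3:**
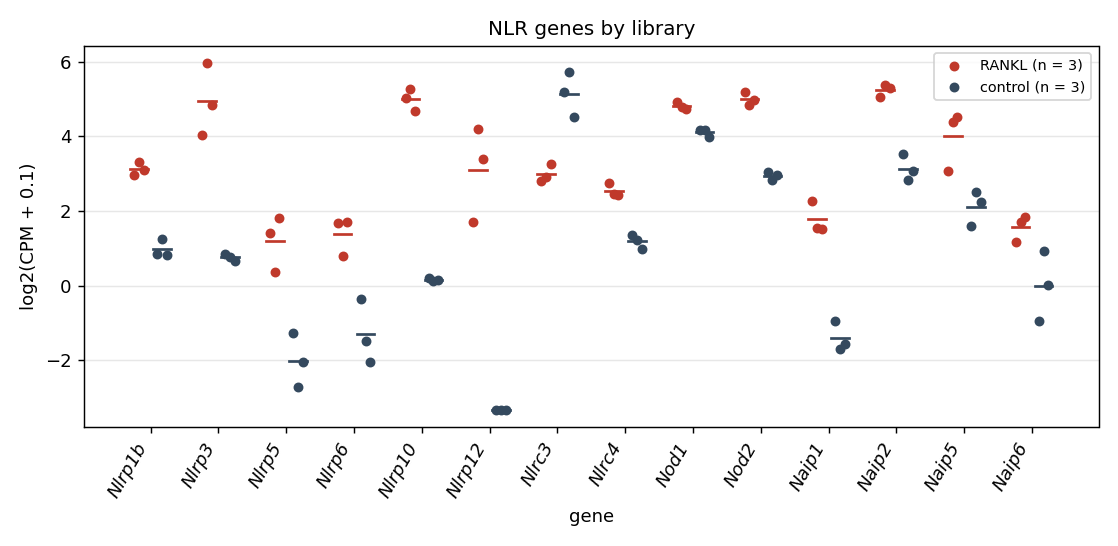
Log2(CPM + 0.1) of the 14 tested NLR genes (x axis), with 1 point per library and a bar at the group mean, RANKL left of control. Nlrc3 is the gene whose RANKL libraries lie below the control libraries, and the 3 control points of Nlrp12 lie at 0 CPM.

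Nod1 and Nod2 sense fragments of bacterial peptidoglycan, and Naip proteins bind flagellin or parts of secretion systems and then engage Nlrc4. Nod2 (chromosome 8, 88647315 to 88688474) had 36.1, 28.3 and 31.2 CPM in RANKL libraries, against 8.17, 6.96 and 7.69 CPM in control libraries (log2 fold change 2.07 ± 0.19, adjusted p = 2.45e-05). Nod1 had 30.4, 27.4 and 26.4 CPM in RANKL libraries, against 17.8, 17.9 and 15.7 CPM in control libraries (0.71 ± 0.17, adjusted p = 0.00514). Both were higher in every RANKL library, with Nod2 the further apart, and Nod1 did not pass a test against a 1.5-fold change (adjusted p = 0.171). The 4 Naip members lie together on chromosome 13 between 100144063 and 100452864, and all rose. Naip2 had 33.2, 41.3 and 38.7 CPM in RANKL libraries, against 11.3, 6.96 and 8.22 CPM in control libraries (2.09 ± 0.23, adjusted p = 4.89e-05). Naip5 had 8.34, 20.9 and 22.8 CPM in RANKL libraries, against 2.90, 5.62 and 4.63 CPM in control libraries (1.98 ± 0.40, adjusted p = 0.00198). Naip1 had 4.74, 2.81 and 2.78 CPM in RANKL libraries, against 0.422, 0.206 and 0.239 CPM in control libraries (3.55 ± 0.47, adjusted p = 0.000164). Groups did not overlap in these genes, but the copies are near-identical in parts and may share reads, so the values of single copies are uncertain. Naip1 passed the filter through RANKL libraries alone and so had to differ, and Naip6 passed partly through them. Naip6 rose by 1.48 ± 0.51 (adjusted p = 0.0276), a call lost without RANKL replicate 2 (0.0565), RANKL replicate 3 (0.0758), control replicate 1 (0.0727) or control replicate 3 (0.0881), and it was 2.09 without control replicate 2.

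Nlrc4, which the Naip proteins recruit, had 6.57, 5.37 and 5.23 CPM in RANKL libraries, against 2.48, 2.22 and 1.86 CPM in control libraries (log2 fold change 1.39 ± 0.30, adjusted p = 0.00271). Nlrc3, a lymphocyte-expressed NLR that dampens signalling (chromosome 16, 3943807 to 3979017), was the NLR that fell. It had 6.89, 7.40 and 9.52 CPM in RANKL libraries, against 36.5, 52.3 and 22.9 CPM in control libraries (-2.23 ± 0.30, adjusted p = 0.00019). The control libraries spread widely, yet the lowest of them was above the highest RANKL library.

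Pycard encodes ASC, the adaptor through which several of these sensors reach caspase 1, and it was lower in RANKL. It had 68.5, 62.1 and 76.8 CPM in RANKL libraries, against 144.0, 165.0 and 227.4 CPM in control libraries (log2 fold change -1.37 ± 0.20, adjusted p = 0.000275). Aim2, the cytosolic DNA sensor, had 16.5, 23.4 and 27.5 CPM in RANKL libraries, against 27.3, 41.3 and 36.0 CPM in control libraries (-0.63 ± 0.23, adjusted p = 0.0385). The Pycard groups were well apart, whereas the Aim2 groups overlapped narrowly. The Aim2 call was lost without RANKL replicate 1 (0.169), RANKL replicate 2 (0.0777), control replicate 2 (0.125) or control replicate 3 (0.0809), and with library totals as the scaling (0.056). Partners and products of inflammasomes rose in 8 of 12 genes and fell in 2, with a median of 0.85. These shares were 66.7% and 16.7%, against 33.8% higher and 29.6% lower of all genes tested. Il1b, the interleukin 1 beta gene, had 354.5 ± 221.4 CPM in RANKL and 4.84 ± 1.65 CPM in control libraries (6.20 ± 0.54, adjusted p = 1.88e-05). Il1a rose by 3.42 ± 0.42, or 2.83 without RANKL replicate 2, Ninj1, which ruptures the membrane of dying cells, by 1.44 ± 0.16 and the mitochondrial Nlrx1 by 1.59 ± 0.23. The members that fell were Txnip, a thioredoxin-binding protein (-0.92), and Pstpip1, a partner of pyrin (-1.19).

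The Card members other than Card6 are scaffolds that join receptors to BCL10, MALT1 and NF-kB in different cells. Card14, the scaffold of keratinocytes (chromosome 11, 119307093 to 119345379), had 9.96, 16.7 and 10.04 CPM in RANKL libraries, against 1.11, 0.825 and 0.191 CPM in control libraries (log2 fold change 4.11 ± 0.52, adjusted p = 0.000119). Card10, the form outside blood cells, had 28.4, 31.7 and 16.9 CPM in RANKL libraries, against 9.02, 5.82 and 5.59 CPM in control libraries (1.91 ± 0.30, adjusted p = 0.000431). The groups were apart in both genes. Card9, the myeloid scaffold below C-type lectins, had 7.43, 21.8 and 16.9 CPM in RANKL libraries, against 7.49, 15.8 and 18.5 CPM in control libraries, and was not called (0.14 ± 0.42, adjusted p = 0.778). It had 1 low library in each group. Card6 was not called either (-0.10 ± 0.19, adjusted p = 0.669). Of 9 partners of these scaffolds 6 were higher and 2 lower, with a median of 1.22. These shares were 66.7% and 22.2%, against 33.8% higher and 29.6% lower of all genes tested. Clec7a, the beta-glucan receptor, rose by 5.31 ± 0.28, Clec4e by 6.995 ± 0.56 and Clec4n by 2.03 ± 0.21, all C-type lectins upstream of Card9, while the kinase Prkcb fell (-2.66 ± 0.21).

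**Figure D4:**
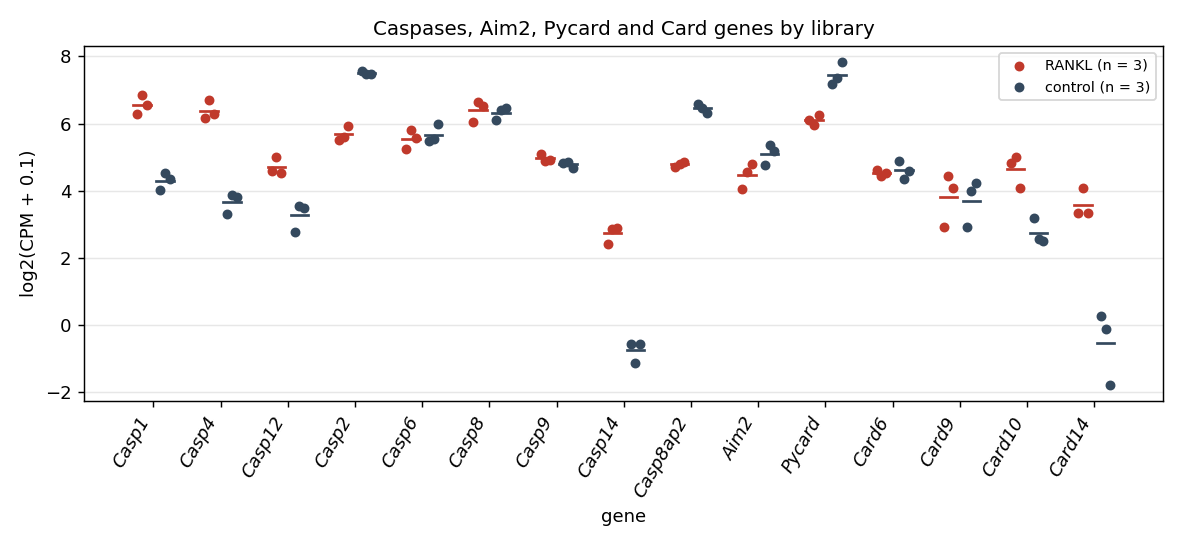
Log2(CPM + 0.1) of 15 caspase, Aim2, Pycard and Card genes (x axis), with 1 point per library and a bar at the group mean, RANKL left of control. Casp1, Casp4 and Casp12 stand higher in RANKL, Casp2 lower, and Casp6, Casp8 and Casp9 were not called.

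The inflammatory caspases Casp1, Casp4 and Casp12 lie in a row on chromosome 9 between 5298517 and 5373034, and all 3 rose. Casp4, the mouse gene once called caspase 11, whose protein binds lipopolysaccharide in the cytosol, had 71.2, 104.9 and 77.3 CPM in RANKL libraries, against 9.75, 14.7 and 14.05 CPM in control libraries (log2 fold change 2.72 ± 0.23, adjusted p = 1.38e-05). Casp1 had 77.6, 115.4 and 92.9 CPM in RANKL libraries, against 16.1, 23.0 and 20.1 CPM in control libraries (2.27 ± 0.21, adjusted p = 2.14e-05). Casp12 had 23.8, 31.8 and 22.9 CPM in RANKL libraries, against 6.80, 11.6 and 11.1 CPM in control libraries (1.41 ± 0.26, adjusted p = 0.00102). No RANKL library of the 3 genes overlapped a control library, replicate 2 was the highest RANKL library of each, and control replicate 1 the lowest control library of each. Summed over the 3 genes, the level was 206.0 ± 41.2 CPM in RANKL and 42.4 ± 8.68 CPM in control libraries (SD, n = 3 each).

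The windows of the neighbours Casp1, at chr9:5298267-5298566, and Casp4, at chr9:5308599-5308898 for the first of its 2 starts, both on the plus strand of GRCm38.p6, are set side by side because the genes moved together. Capitals mark the same pattern, with 1 match in Casp1 and 5 matches in Casp4, where those in the first capital stretch overlap.
Casp1: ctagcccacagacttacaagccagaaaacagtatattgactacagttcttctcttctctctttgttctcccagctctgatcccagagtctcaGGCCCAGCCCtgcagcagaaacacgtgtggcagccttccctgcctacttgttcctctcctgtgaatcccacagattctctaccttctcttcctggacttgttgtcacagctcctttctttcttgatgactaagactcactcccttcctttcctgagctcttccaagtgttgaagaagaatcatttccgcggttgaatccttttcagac
Casp4: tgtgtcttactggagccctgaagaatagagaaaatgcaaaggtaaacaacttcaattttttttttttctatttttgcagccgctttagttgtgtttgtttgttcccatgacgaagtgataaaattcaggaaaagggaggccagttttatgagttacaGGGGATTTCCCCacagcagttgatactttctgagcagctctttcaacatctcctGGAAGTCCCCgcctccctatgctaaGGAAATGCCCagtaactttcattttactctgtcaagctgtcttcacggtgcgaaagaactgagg
Casp12 had no match in its window.

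Among the caspases of apoptosis described here Casp2 was lower, and Casp6, Casp8 and Casp9 were not called. Casp2, which is activated by the PIDDosome after DNA damage or extra centrosomes (chromosome 6, 42264902 to 42282508), had 45.8, 48.4 and 60.7 CPM in RANKL libraries, against 190.1, 178.9 and 179.2 CPM in control libraries (log2 fold change -1.82 ± 0.16, adjusted p = 1.96e-05). Casp8, the initiator below death receptors, had 66.5, 100.5 and 91.2 CPM in RANKL libraries, against 68.9, 84.9 and 87.8 CPM in control libraries (0.10 ± 0.19, adjusted p = 0.676). The Casp2 groups were far apart and those of Casp8 overlapped. Casp9, the initiator of the apoptosome, had 34.0, 29.4 and 29.97 CPM in RANKL libraries, against 28.3, 28.6 and 25.6 CPM in control libraries (0.18 ± 0.16, adjusted p = 0.356). The Casp9 groups were narrowly apart without passing the test. Casp6, an executioner, had a log2 fold change of -0.12 ± 0.20 (adjusted p = 0.621). The signs for Casp6 and Casp8 turned when 1 library was left out, so that no direction can be given.

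Of 13 genes of the apoptosome, death receptors and necroptosis 3 were higher, 2 lower and 8 not called, with a median of 0.06. The shares of 23.1% higher and 15.4% lower were below the 33.8% and 29.6% of all genes tested. Pidd1, the scaffold that activates caspase 2, fell (-2.09 ± 0.32, adjusted p = 0.000407), as did the death receptor Fas (-1.10 ± 0.21, adjusted p = 0.00125). Mlkl, the pore protein of necroptosis, rose by 2.86 ± 0.22 and the death receptor Tnfrsf10b by 1.62 ± 0.19. Caspase inhibitors and their antagonists fell in 4 of 7 genes (57.1%, against 29.6% of all genes tested), with a median of -0.72. Birc5, which also serves cell division, fell (-1.78 ± 0.21), and so did Birc6 (-1.28 ± 0.25) and Xiap, a direct inhibitor of caspases (-0.72 ± 0.14), while Birc3, an NF-kB target, was the member that rose (1.26 ± 0.14). The other of the 4 genes that fell was Diablo (-0.74 ± 0.16), an antagonist of the inhibitors, so the count of 4 mixes both kinds. Among 7 genes for caspase substrates of cell death 5 fell (71.4%, against 29.6% of all genes tested), with a median of -1.16. They included the nuclease Dffb (-1.95 ± 0.20), Parp1 (-1.38 ± 0.17), the nuclear lamin Lmnb1 (-1.75 ± 0.26) and Acin1 (-1.16 ± 0.18).

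Casp14 and Casp8ap2 complete the caspase names. Casp14, the caspase of cornifying epidermis, where it helps to process filaggrin (chromosome 10, 78711995 to 78718347), had 5.28, 7.24 and 7.30 CPM in RANKL libraries, against 0.580, 0.361 and 0.573 CPM in control libraries (log2 fold change 3.69 ± 0.37, adjusted p = 3.38e-05). Casp8ap2, a factor of histone mRNA processing, had 26.2, 27.5 and 29.1 CPM in RANKL libraries, against 96.3, 87.9 and 78.8 CPM in control libraries (-1.67 ± 0.15, adjusted p = 2.27e-05). Both were clear of overlap, in opposite directions.

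The members also varied among the RANKL libraries. Of the 30 members higher in RANKL, 17 were highest in replicate 2, 7 in replicate 1 and 6 in replicate 3, while all 8 lower members were highest in replicate 3. Marker lists of cell types moved alongside. The 10 neutrophil markers, all called higher, summed to 3324, 5989 and 2969 CPM in RANKL libraries, against 87.4, 73.2 and 45.01 CPM in control libraries. That sum, and each marker other than Camp, Ngp and Ltf, was highest in replicate 2. Camp and Ngp were highest in replicate 3, and Ltf in replicate 1. The 10 markers of double-positive thymocytes, all called lower, summed to 197.4, 430.9 and 893.9 CPM in RANKL libraries, against 10551, 9526 and 10222 CPM in control libraries. Among RANKL libraries their sum was highest in replicate 3. Of the other lists, the sums of cornified keratinocyte, fibroblast and medullary epithelial markers were also highest in RANKL replicate 2, those of cortical epithelium, dendritic, B and NK cells in replicate 3, and that of macrophages and monocytes in replicate 1. Markers of macrophages and monocytes were higher in 10 of 10 genes, with sums of 2585 to 3691 CPM in RANKL and 1189 to 1485 CPM in control libraries. Cornified keratinocyte markers were higher in 9 of 9 genes, at 1560 to 3981 CPM in RANKL and 42.0 to 67.2 CPM in control libraries. Fibroblast markers rose in 8 of 8 genes, to 5362 to 8621 CPM in RANKL, against 513.6 to 634.2 CPM in control libraries. The sums of these phagocyte, keratinocyte and fibroblast lists did not overlap between the groups. Medullary epithelial markers rose in 8 of 8 genes, to 4245 to 5575 CPM in RANKL, against 525.5 to 655.0 CPM in control libraries, and cortical markers fell in 5 of 6, to 117.7 to 300.7 CPM in RANKL, against 1656 to 2107 CPM in control libraries. The other cortical marker was called higher (log2 fold change 0.86), a call not kept in every fit with 1 library left out. The sums of the medullary and cortical lists thus moved in opposite directions, but not every single marker did. Dendritic cell markers were higher in 4 genes (1 to 3 with a single library left out) and lower in 2 of 8, at 296.0 to 422.0 CPM in RANKL and 167.3 to 244.9 CPM in control libraries. B cell markers were higher in 1 of 8 genes, at 101.3 to 238.6 CPM in RANKL and 153.2 to 165.6 CPM in control libraries, and markers of NK and innate-like lymphocytes were higher in 2 and lower in 1 of 7. Beside these marker counts, 33.8% of all genes tested were higher and 29.6% lower. None of the listed markers was at 0 in all libraries of a group. The part of these cell types in the levels of the sensors and caspases was not tested.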

How the data were processed

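RNA from 6 thymus samples was analysed, 3 from RANKL and 3 from control mice. The labels' protocols name TRIzol with a column for RNA and a stranded mRNA kit. The authors deposited 1 table of raw read counts by gene. The submitters' processing notes list STAR and mm10. Versions, counting tool, strand setting and annotation: not given in the sources used here. Overlapping and near-identical genes may thus share reads.

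Genes passing edgeR's filterByExpr (about 0.497 CPM in 3 libraries) were scaled by TMM and tested with edgeR 4.0.16 (R 4.3.3), using its two-sided robust quasi-likelihood test without covariates, with Benjamini-Hochberg adjustment over 16096 genes and a threshold of 0.05. Standard errors came from the F statistic. Alternatives included DESeq2 1.42.0 and limma 3.58.1. The code was tested on simulated data. Members and lists were chosen with earlier results of these data known. The naming rule gave library values to up to 5 tested members with the smallest p in each role group, and named up to 4 genes of each pathway list. Other members with library values, and Txnip, Pstpip1 and Diablo, were added after their values were seen. Replicate numbers follow accession order and do not pair samples. No label says that samples are separate animals, so the p-values reflect sample-to-sample spread only, which may be technical. Symbols and identifiers are those deposited; coordinates are from RefSeq GRCm38.p6, the assembly of mm10, matched by Entrez gene for the members named. Exon lengths are unions over GENCODE M21 transcripts, which the authors need not have used. RefSeq windows were matched for 47 members. Values of 3 tested members are not reported here, though counts over all members include them.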

Additional observations from a re-analysis of the deposited data

How the results depend on the processing

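Of 45 tested members 35 kept direction and side of the threshold under all 15 alternatives. The counts of members called ran from 25 to 34 higher and 7 to 8 lower (34 without the filter, where all 59 members were tested), and from 27 to 29 and 7 to 8 with 1 library left out. The other members changed only as given in the report or here: in a test against a 1.5-fold change Tlr5, Tlr6, Tlr9, Naip6, Nod1 and Aim2 were not called (adjusted p of 0.0544, 0.0942, 0.113, 0.0685, 0.171 and 0.333), and members that were not called changed sign. With 1 library left out Card6 ran from -0.243 to 0.032 (above 0 without control replicate 1), Card9 from -0.197 to 0.497 (below 0 without RANKL replicate 2, and at -0.176 without control replicate 1), Casp6 from -0.254 to 0.0484 (above 0 without RANKL replicate 1, and at 0.0372 without control replicate 3) and Casp8 from -0.0263 to 0.284 (below 0 without control replicate 1, and at -0.0248 without RANKL replicate 2). The fitted value of Nlrp12 was 10.78, 10.2 with DESeq2, 8.46 with limma-voom and 10.1 without RANKL replicate 2.

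With a test against a 1.5-fold change, which is stricter by construction, 2654 genes were lower, and counts higher were 3 for receptor accessory genes, 3 for adaptors and kinases (1 lower), 5 for inflammasome partners, 1 for dendritic, 0 for cortical and 1 for NK markers, and 2 caspase inhibitors were lower. With the title-number block, in which control replicate 2 stands alone, 0 caspase substrates were higher, as were 2 dendritic, 2 B cell and 1 NK marker. Without the filter 1 B cell marker was lower and 1 NK marker higher; with DESeq2 or limma-voom 1 B cell marker was lower. With 1 library left out, lower adaptors and kinases numbered 2 to 6, higher caspase inhibitors 1 to 2, higher dendritic markers 1 to 3, lower B cell markers 0 to 1, higher cortical markers 0 to 1, higher NK markers 1 to 2 and lower NK markers 1 to 2; the cause was not tested. Depth limits the 14 Nlrp members under the filter, where 3 reads are 0.122 to 0.161 CPM and a lack of difference cannot be told from low counts.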
